A study of Arabidopsis thaliana with 12 samples.

Results

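Loss of LHP1 was examined in whole Arabidopsis thaliana seedlings by setting the group expression values of the mutant lhp1 against those of wild type at every locus. The table held 31788 loci, the same loci as the pkl and clf tables of the series, and all of them belong to this comparison. Of these, 31554 carried a gene name and 19509 named loci had a completed test. The series holds 12 RNA-seq libraries, 3 for each of 4 genotypes: wild type (WT) and the mutants pkl, clf and lhp1. All plants were 14 days old, and the labels' protocols give plates of half-strength MS salt medium at 22 °C under a day of 16 h light and 8 h dark. The labels name no ecotype, allele or transgene and do not say whether the lhp1 plants came from 1 line or several. Each locus has 1 value per genotype in FPKM, a fragment count set against transcript length and library size. No spread between libraries can therefore be given, and overlap between the libraries of 2 genotypes cannot be read from it. A locus is called where the authors' Cuffdiff test had status OK and its deposited q was under 0.05, and "rose" and "fell" are kept for called loci.

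LHP1 (LIKE HETEROCHROMATIN PROTEIN 1, also named TFL2) is a chromodomain protein that binds histone H3 trimethylated on lysine 27, the mark left by Polycomb repressive complex 2. Polycomb repression keeps developmental genes, among them those of flowers, off in vegetative tissue. CLF is a methyltransferase of that complex and PKL is a CHD3-type chromatin remodeller. In whole seedlings, fewer cells of a type and less RNA per cell cannot be told apart.

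The mutated gene matched its label. LHP1 (AT5G17690) stood at 12.1 FPKM in wild type, 13.1 in clf and 11.1 in pkl and was listed at 0 in lhp1. Its locus, TAIR10 chromosome 5, 5822841 to 5829775 in the files, also holds AT5G17680, a disease resistance gene with the same locus bounds. Its 3 tested neighbours in chromosome order, counted with it as a run of 4, also fell. AT5G17680 stood at 0.451 FPKM in wild type and was listed at 0 in lhp1, AT5G17700 fell from 8.80 to 4.88 and EMB1241 fell from 92.0 to 73.3 FPKM. These 3 loci stood in clf at 0.605, 12.3 and 81.7 and in pkl at 0.451, 6.32 and 104.

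In lhp1 4236 loci were called, almost evenly split between directions. Of the 19509 tested, 2166 rose (11.1%) and 2070 fell (10.6%), together 21.7%. The matching shares called in either direction were 12.4% of 19370 loci in clf and 13.5% of 19365 in pkl, each against the same wild-type values. In clf 7.15% rose and 5.28% fell, and in pkl 6.71% and 6.75%. Rises of at least 2-fold numbered 804 (4.12%) and falls of that size 630 (3.23%), and rises and falls of at least 8-fold numbered 132 (0.677%) and 66 (0.338%). These 4 counts take in called loci listed at 0 in 1 genotype, whose ratio is not finite. Among called loci with 1 gene, 42 were listed at 0 in wild type and 12 in lhp1. The loci that rose were the more weakly expressed in wild type, with a median of 8.54 FPKM there, while those that fell had a median of 32.8. Of the 804 loci that rose at least 2-fold, 271 stood under 1 FPKM in wild type, and of the 630 that fell as far, 142 stood under 1 FPKM in lhp1. Each such level is 1 of the values that make the fold.

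**Figure D1:**
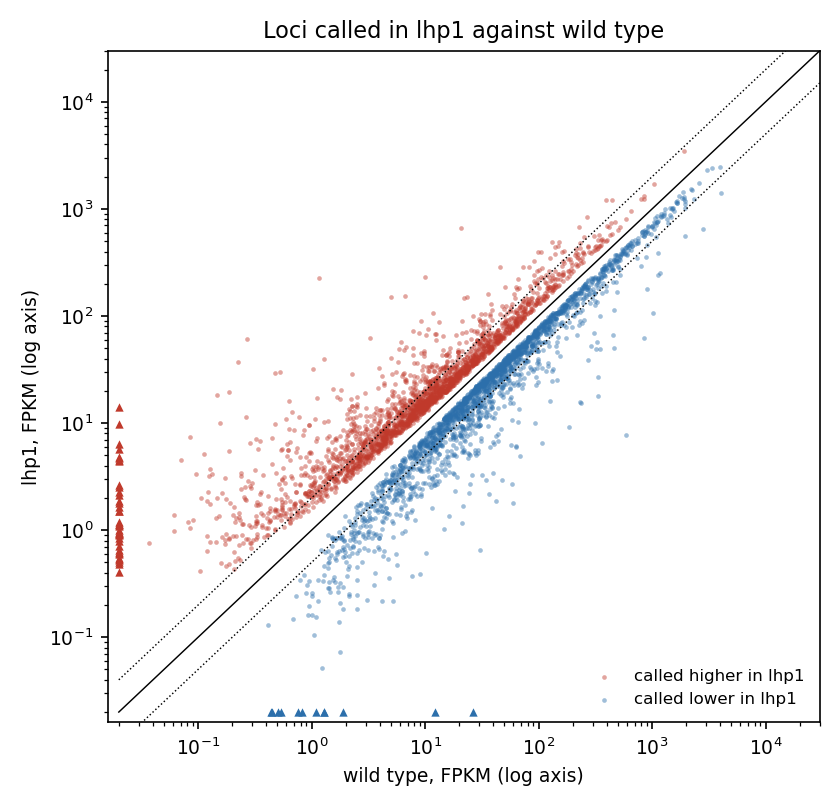
FPKM in lhp1 (vertical, log axis) against wild type (horizontal, log axis) for the 4236 called loci, red where higher and blue where lower in lhp1; triangles at the margins are loci under 0.02 FPKM in 1 genotype, the solid line marks equal values and dotted lines a 2-fold difference. Red points spread widely at low wild-type levels. At the highest levels some blue points lie beyond the 2-fold line, among them GRP3S and AT5G42530.

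The direction of the calls changed with expression level. Loci were grouped by the mean of pkl and clf, a level that uses neither value compared. Below 1 FPKM 183 of 1590 tested loci rose and 65 fell. At 1 to 10 FPKM 828 of 6386 rose and 469 fell, and at 10 to 100 FPKM 971 of 9688 rose and 1104 fell. At 100 FPKM or more 184 of 1845 loci rose and 432 fell, so the share that fell climbed from 4.09% in the lowest group to 23.4% in the highest. The standard error of a log2 fold change, read back from the deposited p-value, had a median of 0.646 below 1 FPKM and 0.127 at 100 or more. These medians rest on 1014 of the 1590 and 1119 of the 1845 loci. Loci with no finite fold, at the smallest p-value or with a p-value of 0.5 or more were left out. Small changes of weak genes were thus unlikely to pass the test. Calls were spread over the genome, with 10.3% to 11.4% of tested loci higher and 9.77% to 11.4% lower on each of the 5 chromosomes.

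Genes of the phosphate starvation response fell together in lhp1. Plants short of phosphate switch on transporters, phosphatases, enzymes that replace phospholipids with galactolipids and sulfolipids, and the noncoding RNA IPS1, which binds and blocks the microRNA miR399. The transcription factor PHR1 drives much of this response through the P1BS motif, and SPX proteins hold PHR1 back when phosphate is plentiful. Of 20 tested genes of the response 14 fell and 1 rose, where 10.7% of the 17484 tested loci with 1 gene fell and 11.6% rose. The median log2((FPKM + 1)/(FPKM + 1)) of the 20 was -1.40, against 0.03 over those loci.

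Windows of 250 bases before the annotated start of some of these genes are shown because several hold P1BS; the strand printed is that of the gene, and capitals mark GNATATNC, which reads the same on both strands. Sequences and positions are from RefSeq, assembly TAIR10.1.
SRG3, chr3:350011-350260, minus strand: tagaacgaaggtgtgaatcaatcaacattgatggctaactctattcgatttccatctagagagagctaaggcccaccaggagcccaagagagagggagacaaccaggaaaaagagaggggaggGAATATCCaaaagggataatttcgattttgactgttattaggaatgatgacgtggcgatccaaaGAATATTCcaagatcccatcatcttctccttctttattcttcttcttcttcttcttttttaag
AT5G03545, chr5:894332-894581, plus strand: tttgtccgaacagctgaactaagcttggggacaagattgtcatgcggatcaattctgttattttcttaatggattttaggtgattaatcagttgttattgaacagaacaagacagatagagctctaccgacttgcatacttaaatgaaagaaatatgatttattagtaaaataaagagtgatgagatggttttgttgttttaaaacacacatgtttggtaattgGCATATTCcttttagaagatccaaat
PHT1;2, chr5:17415448-17415697, plus strand: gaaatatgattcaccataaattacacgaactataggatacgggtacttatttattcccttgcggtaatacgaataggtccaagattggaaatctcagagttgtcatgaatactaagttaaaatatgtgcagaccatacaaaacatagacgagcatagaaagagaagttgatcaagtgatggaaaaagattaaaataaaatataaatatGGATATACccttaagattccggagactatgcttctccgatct
SRG3, a glycerophosphodiester phosphodiesterase gene, holds P1BS at 127 and 63 bases before its start, AT5G03545 at 26 and the phosphate transporter gene PHT1;2 at 42, counted from the motif's first base. The other matches among the genes that fell were in PLDP2, PHT1;7 and MGD2, at 180, 124 and 14 bases. Together 6 of the 14 windows of falling phosphate genes held the motif (42.9%), and 6 of the 20 of all tested phosphate genes, against 5.6% of 23097 windows of the same length over all genes and 5.69% of the 17014 whose gene was tested.

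Among the listed genes of the response, IPS1 and MGDC had the largest falls on the log2 scale. IPS1 stood at 231 FPKM in wild type, 15.8 in lhp1, 123 in clf and 43.0 in pkl, a log2 fold change of -3.87 in lhp1. AT5G03545, whose window is shown above, stood at 904 FPKM in wild type, 179 in lhp1, 756 in clf and 245 in pkl. The galactolipid synthase gene MGDC stood at 68.9 FPKM in wild type, 4.94 in lhp1, 32.9 in clf and 39.8 in pkl, and its relative MGD2 at 24.6 FPKM in wild type, 5.03 in lhp1, 17.7 in clf and 14.5 in pkl. In each of these 4 genes lhp1 was the lowest genotype and wild type the highest. PLDP2, a phospholipase D gene, fell from 27.9 to 5.03 FPKM, SRG3 from 306 to 69.6 and the sulfolipid gene SQD1 from 253 to 92.0.

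Uptake and sensing genes split. PHT1;2 stood at 21.4 FPKM in wild type, 1.69 in lhp1, 10.9 in clf and 8.57 in pkl. PHT1;4, another phosphate transporter gene, fell from 154 to 42.7 FPKM and PHT1;7 from 1.00 to 0.161. PHT1;1 stood at 129 in wild type and 127 in lhp1 and was not called, and neither were PHT1;5 and PHT1;8; PHT1;1 and PHT1;2 are close copies, so their values are uncertain. Sensor genes fell as well, SPX1 from 346 to 99.6 and SPX2 from 58.9 to 33.4 FPKM, while SPX4 stood at 10.8 in wild type and 9.42 in lhp1 and was not called. The acid phosphatase gene PAP17 fell from 195 to 78.2 FPKM, and PAP14, outside the list, from 20.97 to 1.15. PHO1, which exports phosphate into the xylem, was the 1 member that rose, from 43.8 to 74.3 FPKM, while its homolog PHO1;H1 fell from 23.8 to 14.0.

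The same list held 10 falls and 0 rises of 20 tested in clf and 10 falls and 0 rises in pkl, and the 3 comparisons share the wild-type values. Background shares of loci that fell were 5.49% in clf and 7.03% in pkl. Across the 4 genotypes lhp1 was lowest in 16 of the 20 genes and wild type highest in 16. Medium and light are labelled alike for all groups, and phosphate content of the plants was not measured here. Of 15 root markers 1 rose and 3 fell, the falls being those of NRT2:1, PRP1 and PRP3, and none was at 0 in either genotype. Their part in the falls of the phosphate genes was not tested.

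**Figure D2:**
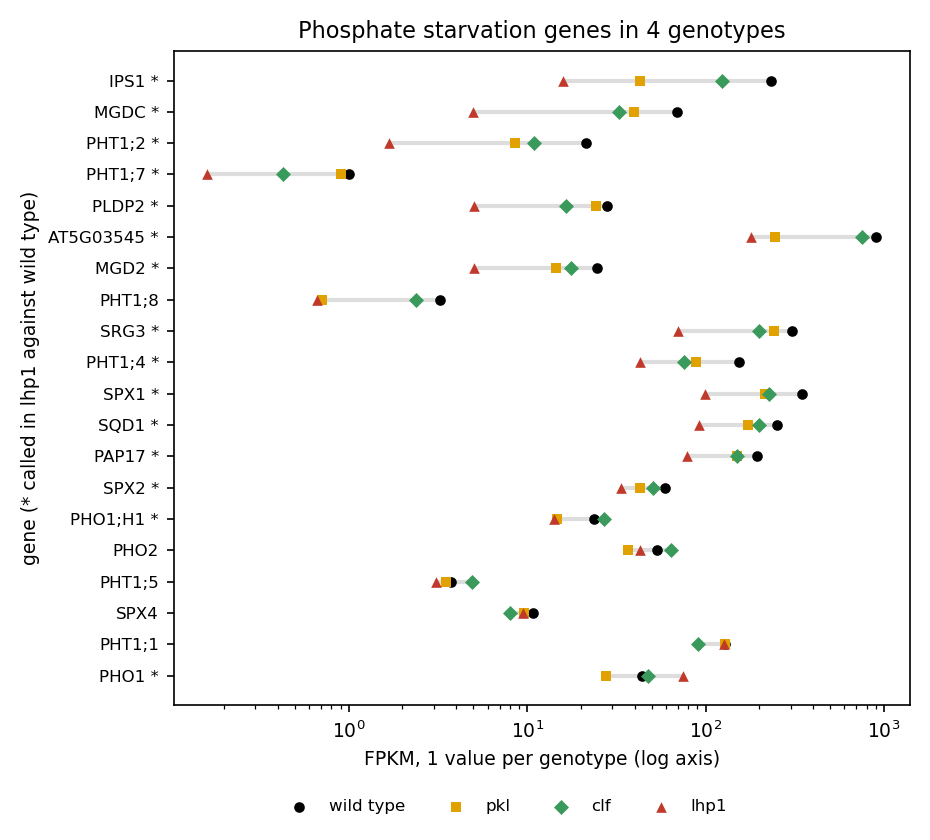
FPKM (log axis) of the 20 tested phosphate starvation genes, 1 value per genotype, in order of the log2 fold change of lhp1 against wild type; stars mark genes called in lhp1 against wild type. The red triangles of lhp1 lie at the left end of most lines, and PHO1, at the bottom, is the starred gene with lhp1 at the right.

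Of 23 tested microRNA genes with a locus of their own, 4 fell (17.4%) and 1 rose (4.35%), where 10.7% of all loci with 1 gene fell. They include MIR399c, which acts in phosphate signalling, and genes of miR156 and miR157, which delay the change from juvenile to adult growth. The mature strands of the 4 precursors that fell are shown from RefSeq (TAIR10.1), 5′ to 3′, with the seed (bases 2 to 8) in capitals.
miR399c-3p, chr5:24962568-24962588, plus strand: uGCCAAAGgagaguugcccug
miR156a-5p, chr2:10676534-10676553, minus strand: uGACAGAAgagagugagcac
miR156c-5p, chr4:15415491-15415510, minus strand: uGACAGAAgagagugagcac
miR157c-5p, chr3:6244673-6244693, minus strand: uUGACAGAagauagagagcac
miR156a-5p and miR156c-5p share the seed GACAGAA, and that of miR157c-5p, UGACAGA, is the same stretch moved by 1 base. MIR399c, whose product targets PHO2, stood at 3.50 FPKM in wild type, 0.944 in lhp1, 1.99 in clf and 2.88 in pkl. PHO2, a ubiquitin-conjugating enzyme gene, stood at 53.2 in wild type and 42.6 in lhp1. Its deposited q was 0.0516, just past the limit, so it was not called. MIR156a stood at 1.72 FPKM in wild type, 0.264 in lhp1, 0.816 in clf and 1.000 in pkl, and MIR156c at 2.104 FPKM in wild type, 0.438 in lhp1, 1.53 in clf and 1.54 in pkl. MIR157c stood at 1.88 FPKM in wild type, 0.294 in lhp1, 1.16 in clf and 145 in pkl, so that its value was lowest in lhp1 and by far the highest in pkl. MIR398c rose from 20.4 to 31.9 FPKM. The values are of precursor RNA, and mature microRNAs were not measured here.

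Targets of miR156 are genes of the SPL (SQUAMOSA PROMOTER BINDING PROTEIN-LIKE) family, which promote adult growth and flowering. Of 14 tested SPL genes 4 rose (28.6%) and 0 fell, where 11.6% of all loci with 1 gene rose and 10.7% fell. In clf 5 of 14 rose and 0 fell, and in pkl 0 rose and 1 fell of 14. Over all loci with 1 gene, 7.48% rose in clf and 7.0% in pkl. SPL4 rose from 4.38 to 23.5 FPKM, SPL3 from 6.81 to 24.3, SPL9 from 4.74 to 12.3 and SPL8, which miR156 does not target, from 2.08 to 4.20. In clf these 4 genes stood at 23.2, 25.3, 11.1 and 8.71 FPKM, and in pkl at 2.48, 4.41, 3.43 and 1.20. A link of the SPL rises to the falls of the precursors was not tested.

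The gene lists differed widely in how many members were called. Of 49 lists of processes and families, phosphate starvation, TCP factor and auxin transport genes had the highest shares of falls, at 70.0%, 57.1% and 38.9%. Triterpene cluster, cytokinin, secondary wall, strigolactone and cuticle genes had the highest shares of rises, at 66.7%, 45.5%, 42.1%, 41.7% and 41.4%. In clf these lists rose in 7 of 7, 7 of 23, 2 of 19, 5 of 12 and 13 of 28 tested genes. In pkl they rose in 1 of 6, 5 of 21, 5 of 19, 1 of 12 and 0 of 26. Over all loci with 1 gene, 7.48% rose in clf and 7.0% in pkl. F-box genes (7.84% higher and 6.54% lower of 153) and histone genes (3.45% in each direction of 29) were among the lists under the background in both directions. The counts of the lists below are to be read against these shares of all loci with 1 gene, 11.6% higher and 10.7% lower.

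**Figure D3:**
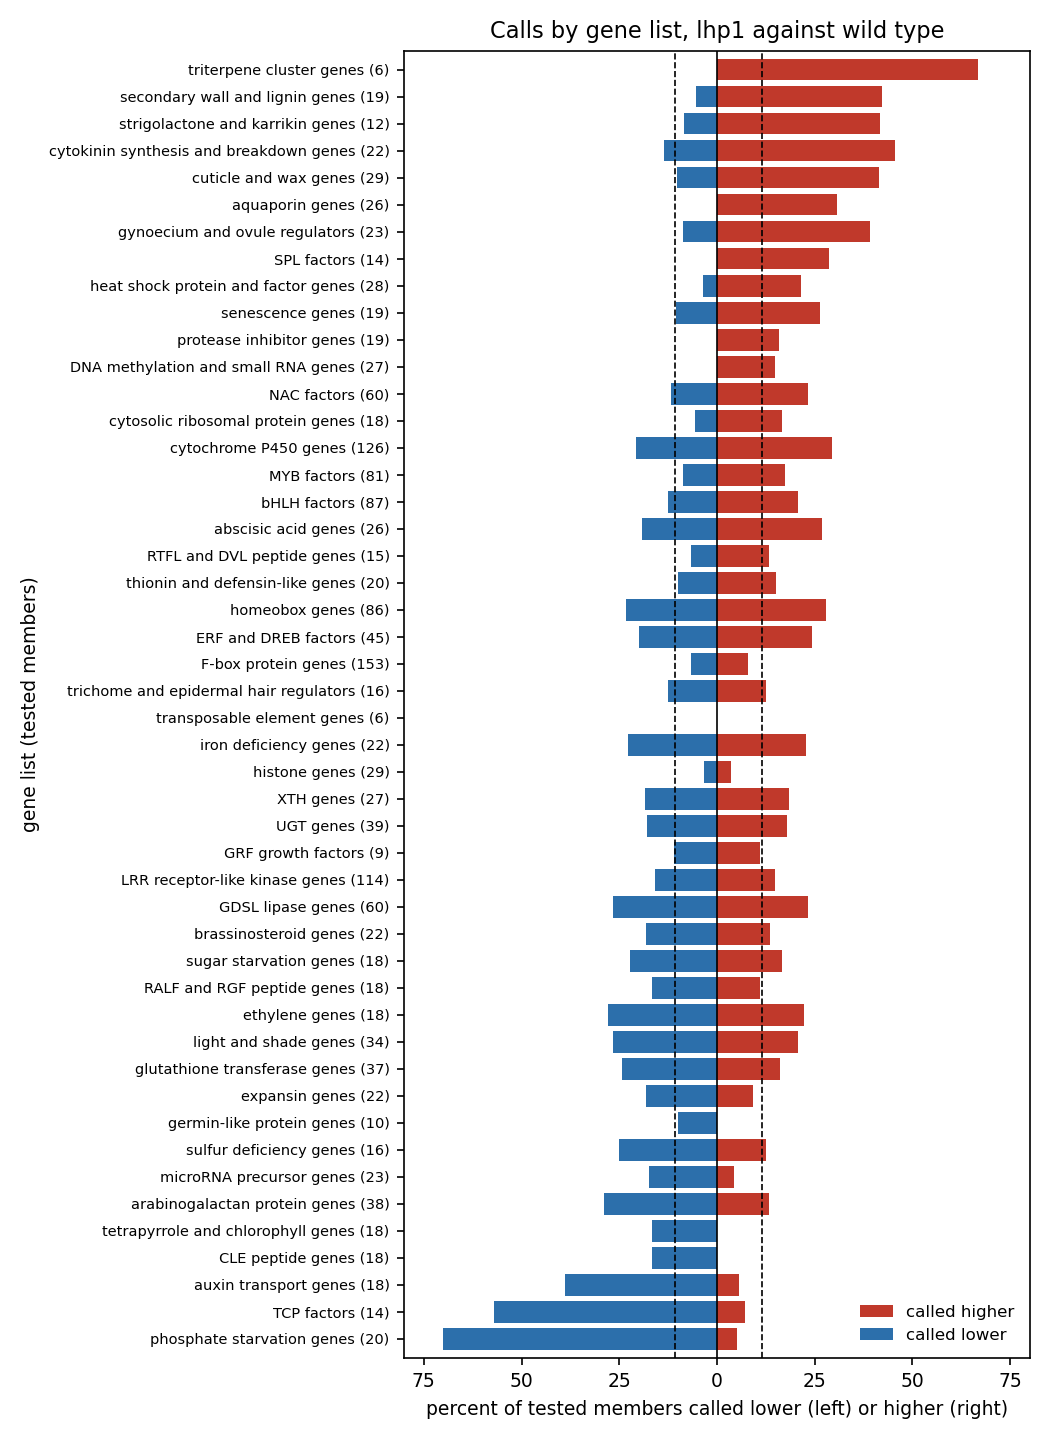
Percent of the tested members of process and family lists called higher (red, right) or lower (blue, left) in lhp1 against wild type. The number tested is in parentheses. Of these lists 1 was left out, and the tissue marker lists are not drawn. Dashed lines mark the shares over all tested loci with 1 gene, 11.6% higher and 10.7% lower. Among the lists drawn, phosphate starvation, TCP and auxin transport genes reach furthest left, and triterpene, cytokinin and wall genes furthest right.

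TCP factors, which set leaf shape and restrain or promote cell proliferation, mostly fell. Of 14 tested 8 fell and 1 rose, with a median of -0.44 on the log2 scale with 1 added. In clf 2 fell and 3 rose of 14, and in pkl 3 fell and 0 rose of 12. TCP3 stood at 56.4 FPKM in wild type, 20.8 in lhp1, 40.3 in clf and 51.6 in pkl. TCP4 stood at 23.4 FPKM in wild type, 12.9 in lhp1, 18.1 in clf and 23.2 in pkl, and TCP2 at 12.0 FPKM in wild type, 6.84 in lhp1, 13.2 in clf and 7.60 in pkl. TCP24 fell from 29.1 to 17.0 FPKM and TCP10 from 16.3 to 10.3, so that all 5 of these miR319-targeted genes of the CIN class fell. TCP17 rose from 2.56 to 4.82 FPKM. At a q under 0.01 the number of falls was 5.

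Auxin transport genes fell in 7 cases and rose in 1 of 18 tested. In clf 6 fell and 2 rose of 18, and in pkl 3 fell and 0 rose of 18. Over all loci with 1 gene, 5.49% fell in clf and 7.03% in pkl. The summed level of the 19 list genes with a locus of their own was 1303 FPKM in wild type and 1398 in lhp1. The efflux carrier gene PIN4 stood at 56.5 FPKM in wild type, 16.9 in lhp1, 39.2 in clf and 62.5 in pkl. PIN7 stood at 83.9 FPKM in wild type, 33.4 in lhp1, 60.3 in clf and 57.7 in pkl and PIN3 fell from 56.0 to 23.5 FPKM. WAG1 and WAG2, for kinases that act on PIN proteins, fell from 5.57 to 2.06 and from 6.24 to 2.22 FPKM. LAX1, an uptake carrier gene, fell from 37.2 to 18.0 FPKM. ABCB1, an auxin exporter gene, rose from 41.4 to 66.1 FPKM.

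Of 22 tested cytokinin genes 10 rose and 3 fell, and both the rises and the falls held genes of synthesis and of breakdown. IPT3, for the enzyme of the first step of synthesis, stood at 11.3 FPKM in wild type, 33.9 in lhp1, 18.1 in clf and 15.6 in pkl. IPT5 rose from 2.62 to 7.61 FPKM and IPT7 from 0.145 to 1.29, and CYP735A1 and CYP735A2, which make trans-zeatin forms, rose from 0.176 to 1.94 and from 3.55 to 10.4. ABCG14, a root-to-shoot cytokinin exporter gene, rose from 21.2 to 46.6 FPKM and the receptor gene WOL from 11.05 to 17.5. Among cytokinin oxidases, which degrade the hormone, CKX3 stood at 0.448 FPKM in wild type, 7.20 in lhp1, 2.03 in clf and 1.23 in pkl, CKX5 rose from 0.886 to 4.81 and CKX6 fell from 8.10 to 2.60 FPKM. The activating enzyme genes LOG8 and LOG1 fell, from 69.8 to 28.6 and from 32.9 to 14.2 FPKM. LOG6, of the same family and outside the list, stood at 0.818 FPKM in wild type and was listed at 0 in lhp1.

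**Figure D4:**
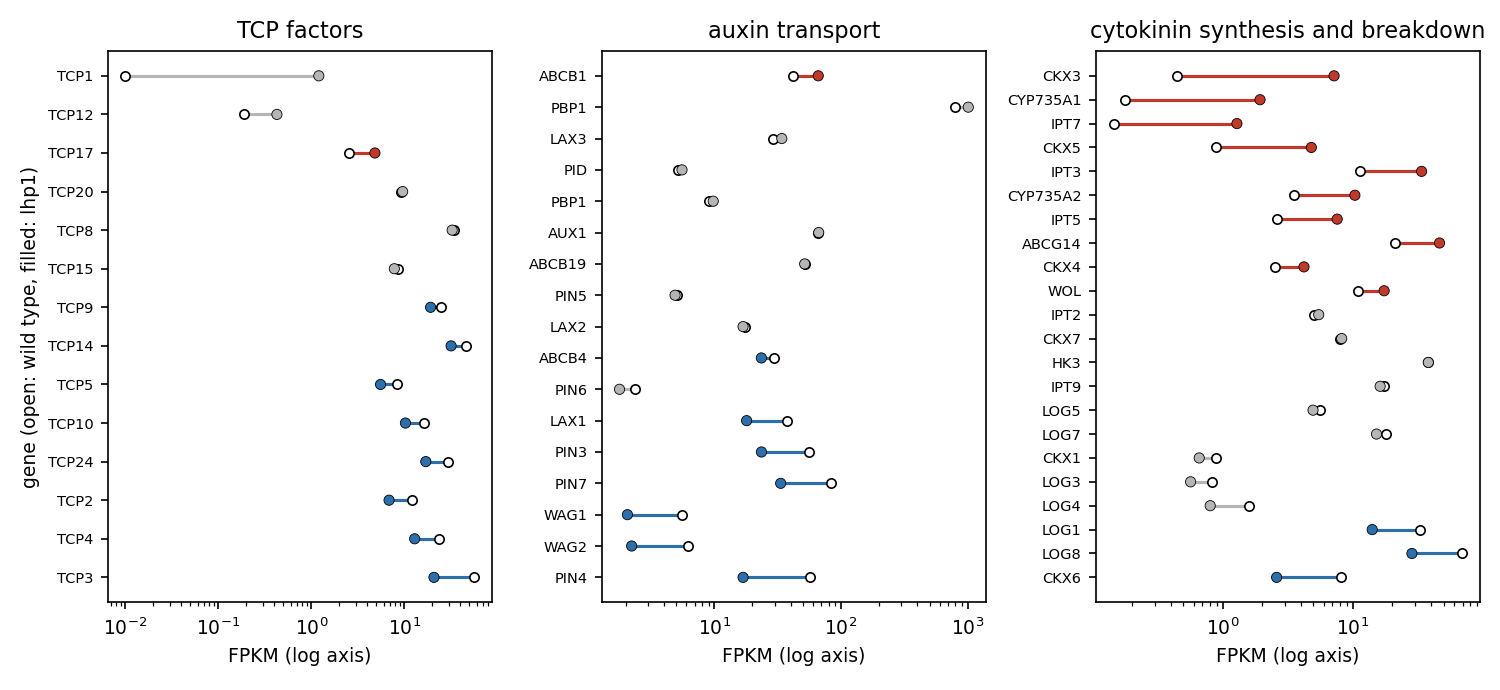
FPKM (log axis) in wild type (open circles) and lhp1 (filled circles) of tested TCP factor, auxin transport and cytokinin genes, 1 value per genotype, with red lines where called higher, blue where called lower and grey where not called. Blue lines hold 8 TCP and 7 auxin transport genes, and red lines 10 cytokinin genes; PBP1 is the symbol of 2 genes, and 1 tested auxin transport gene is not drawn.

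Ethylene genes moved both ways. EFE, an ACC oxidase gene for the last step of ethylene synthesis, stood at 464 FPKM in wild type, 114 in lhp1, 265 in clf and 310.2 in pkl. The synthase genes ACS7 and ACS8 rose, from 5.38 to 15.01 and from 0.328 to 0.858 FPKM. EIL1, for a transcription factor of the pathway, fell from 61.6 to 32.4 FPKM and EBF2, for an F-box protein that degrades such factors, from 248 to 133. In all 4 rose and 5 fell of 18 tested.

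Among brassinosteroid genes BEE3, a growth-promoting bHLH gene, stood at 57.7 FPKM in wild type, 2.69 in lhp1, 16.3 in clf and 26.8 in pkl and its relative BEE1 fell from 17.5 to 7.12 FPKM. CYP90D1, of brassinosteroid synthesis, rose from 4.59 to 12.0 FPKM, and CPD, of the same pathway, fell from 110.2 to 74.6. The list had 3 rises and 4 falls of 22.

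Among abscisic acid genes 7 rose and 5 fell of 26. The synthesis gene NCED2 rose from 0.128 to 1.77 FPKM and the phosphatase gene HAI1 from 1.39 to 5.68. CYP707A1 and CYP707A2, which break the hormone down, went opposite ways, from 2.91 to 6.56 and from 4.56 to 1.60 FPKM. The receptor gene PYL4 fell from 311 to 164 FPKM.

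Strigolactone and karrikin genes rose in 5 cases and fell in 1 of 12 tested. LBO1, for a late step of strigolactone synthesis, stood at 9.28 FPKM in wild type, 44.9 in lhp1, 58.1 in clf and 9.34 in pkl. CCD8, for a carotenoid cleavage enzyme earlier in the pathway, rose from 1.504 to 5.30 FPKM. Background shares of rises were 7.48% in clf and 7.0% in pkl, where 5 and 1 members of the same list rose.

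Genes of light and shade signalling had 7 rises and 9 falls of 34. The falls held several phytochrome-interacting factor genes, whose products promote elongation. PIF3 fell from 34.3 to 11.3 FPKM, PIL6, also called PIF5, from 12.7 to 2.71, PIF7 from 6.65 to 2.63 and PIF4 from 2.96 to 1.24. PKS1, for a substrate of phytochrome, stood at 27.3 FPKM in wild type, 5.59 in lhp1, 15.3 in clf and 17.9 in pkl. The photoreceptor genes PHYA and PHYB rose, from 50.3 to 70.7 and from 18.9 to 25.2 FPKM. Phototropin genes PHOT1 and PHOT2 fell, from 46.8 to 25.2 and from 41.8 to 27.5 FPKM.

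Secondary wall and lignin genes rose in 8 cases and fell in 1 of 19, with changes of modest size. LAC17, a lignin laccase gene, rose from 7.36 to 16.0 FPKM, CAD5, for a late step of lignin precursor synthesis, from 63.0 to 109, and C4H, for an early step, from 223 to 377. IRX3, a cellulose synthase of secondary walls, rose from 5.27 to 8.19 FPKM. Xylem markers, several of which are on this list, rose in 5 cases of 8, and their summed level was 128.8 FPKM in wild type, 176 in lhp1, 156 in clf and 120.6 in pkl. None of the 8 was at 0 in either genotype. Their part in the rise of the wall genes was not tested.

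Cuticle and wax genes rose in 12 cases and fell in 3 of 29, with a median of 0.37. CER3, of alkane synthesis, rose from 30.7 to 83.1 FPKM and CYP77A6, of flower cutin synthesis, from 4.001 to 13.1. CYP96A15, for the oxidase that makes stem wax ketones, was listed at 0 in wild type and stood at 1.66 in lhp1. The regulator genes SHN3 and SHN2 went opposite ways, from 0.258 to 2.55 and from 4.25 to 1.18 FPKM. Of 7 epidermis markers 0 rose and 2 fell, ATML1 from 27.4 to 16.1 and HDG2 from 10.5 to 6.16 FPKM. Their summed level was 1486 FPKM in wild type and 1587 in lhp1, while their median on the log2 scale with 1 added was -0.14. In 5 of the 7 markers lhp1 was the lowest of the 4 genotypes. None was at 0, and the part of these markers in the cuticle gene calls was not tested.

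Other wall families were mixed. Arabinogalactan proteins, surface glycoproteins, fell in 11 cases and rose in 5 of 38, as FLA9 fell from 319 to 196 FPKM and FLA13 from 382 to 237 while AGP1 rose from 72.4 to 137. Expansins, which loosen walls, had 2 rises and 4 falls of 22, with EXPA8 falling from 24.8 to 9.79 FPKM. XTH genes, for enzymes that cut and join xyloglucan, had 5 rises and 5 falls of 27. Aquaporin genes, for water channels, rose in 8 cases and fell in 0 of 26; PIP2;5 rose from 15.1 to 35.0 FPKM, PIP2A from 307 to 557 and TIP2;2 from 160.4 to 241. At a q under 0.01, 5 aquaporin genes rose. In clf 10 aquaporin genes rose and 2 fell of 27, and in pkl 2 rose and 4 fell of 27.

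Regulators of the gynoecium and ovule rose in 9 cases and fell in 2 of 23. IND, which patterns the opening of the fruit, was listed at 0 in wild type and stood at 9.76 FPKM in lhp1, 1.21 in clf and 0 in pkl. ALC, which acts beside it, stood at 6.57 FPKM in wild type, 29.1 in lhp1, 25.2 in clf and 8.24 in pkl. SPT rose from 8.31 to 16.6 FPKM, RPL from 15.5 to 26.96 and BEL1 from 10.6 to 16.0. SUP and SPL (here SPOROCYTELESS) were listed at 0 in wild type and stood at 0.620 and 0.898 in lhp1. HEC1, for a partner of SPT, fell from 2.51 to 0.341 FPKM. Pollen and tapetum markers stayed near 0, with a sum over 7 genes of 1.62 FPKM in wild type and 1.71 in lhp1 and PRK2A, VGD1 and DYT1 listed at 0 in both.

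The large transcription factor families were called more often than all loci in at least 1 direction. Homeobox genes rose in 24 cases and fell in 20 of 86. ATHB54 stood at 1.298 FPKM in wild type, 39.3 in lhp1, 35.7 in clf and 1.39 in pkl, and HB21 (AT2G18550) at 0.704 FPKM in wild type, 8.70 in lhp1, 19.7 in clf and 0.125 in pkl. KNATM, a KNOX gene without a homeodomain, stood at 1.09 FPKM in wild type and was listed at 0 in lhp1. NAC factors rose in 14 and fell in 7 of 60, with NAC2 (AT3G15510) rising from 5.04 to 40.2 FPKM and NAC6 (AT5G39610), a promoter of leaf senescence, falling from 41.1 to 12.3. MYB factors rose in 14 and fell in 7 of 81; MYB90, an activator of anthocyanin synthesis, stood at 10.2 FPKM in wild type, 0.618 in lhp1, 5.78 in clf and 1.73 in pkl.

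Among bHLH factors 18 rose and 11 fell of 87, and among ERF and DREB factors 11 rose and 9 fell of 45. ERF71, a hypoxia-response factor gene, rose from 5.48 to 23.0 FPKM and RAP2.7, for an AP2-type repressor of flowering, fell from 30.2 to 9.64. GRF growth factors had 1 rise and 1 fall of 9. Regulators of leaf hairs had 2 rises and 2 falls of 16, the zinc finger genes GIS and ZFP8 falling from 1.90 to 0.185 and from 26.1 to 3.25 FPKM.

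Small peptide genes were called near the background. CLE genes had 3 falls and 0 rises of 18, and among them CLE44, whose peptide keeps vascular stem cells dividing, fell from 4.78 to 2.02 FPKM. RGF9, of the root meristem growth factors, stood at 63.7 FPKM in wild type, 6.14 in lhp1, 18.1 in clf and 35.8 in pkl. RALF and RGF genes had 2 rises and 3 falls of 18, and RTFL genes 2 rises and 1 fall of 15.

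Lists of other nutrient responses were called in both directions. Iron deficiency genes had 5 rises and 5 falls of 22. Genes for nicotianamine synthase, which makes a metal chelator, split, as NAS4 fell from 6.36 to 1.86 FPKM and NAS3 from 26.2 to 10.1 while NAS1 rose from 55.6 to 93.7. Sulfur deficiency genes had 2 rises and 4 falls of 16; LSU1 fell from 21.8 to 10.98 FPKM and LSU2 from 37.3 to 18.0. Sugar starvation genes had 3 rises and 4 falls of 18. DIN2, a beta-glucosidase gene, rose from 0.350 to 6.80 FPKM and ASN1, an asparagine synthetase gene, fell from 18.9 to 8.95.

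Senescence genes rose in 5 and fell in 2 of 19. SAG12, a cysteine protease gene of ageing leaves, was listed at 0 in wild type and pkl and stood at 4.51 FPKM in lhp1 and 8.77 in clf. SAG29, a SWEET sugar transporter gene, stood at 0.862 FPKM in wild type, 8.65 in lhp1, 0.898 in clf and 0.326 in pkl. Tetrapyrrole and chlorophyll genes fell in 3 and rose in 0 of 18, among them the protochlorophyllide reductase gene POR C, from 121 to 75.7 FPKM. Leaf mesophyll markers, beside these genes, had 1 rise and 2 falls of 7, and their summed level was 30226 FPKM in wild type and 22174 in lhp1; their part in the falls was not tested.

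Genes of triterpene gene clusters, in which neighbouring genes make 1 specialised compound, rose in 4 and fell in 0 of 6. The thalianol synthase gene THAS1 stood at 12.3 FPKM in wild type, 26.3 in lhp1, 27.5 in clf and 9.51 in pkl, and CYP708A2, of the same cluster, at 19.6 FPKM in wild type, 48.2 in lhp1, 55.6 in clf and 22.6 in pkl. Cytochrome P450 genes at large rose in 37 and fell in 26 of 126. UGT glycosyltransferases had 7 rises and 7 falls of 39. Glutathione transferases had 6 rises and 9 falls of 37, GSTF7 falling from 227 to 82.5 FPKM, and GDSL lipases 14 rises and 16 falls of 60. Leucine-rich repeat receptor kinases had 17 rises and 18 falls of 114.

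Protease inhibitor genes rose in 3 of 19, a share of 15.8% near the 11.6% over all loci, and fell in 0, with the Kunitz inhibitor gene KTI1 going from 72.9 to 286 FPKM. Thionin and defensin-like genes had 3 rises and 2 falls of 20, and germin-like genes 1 fall of 10. Heat shock genes rose in 6 and fell in 1 of 28. DNA methylation and small RNA genes rose in 4 of 27, a share of 14.8% near the 11.6% over all loci, and fell in 0; CHR1, also known as DDM1, a remodeller that maintains methylation, rose from 4.78 to 8.23 FPKM. None of 6 tested transposable element genes was called. Genes annotated as 40S or 60S ribosomal proteins had 3 rises and 1 fall of 18, and AT3G28500, of the acidic stalk proteins, stood at 3.26 FPKM in wild type, 62.8 in lhp1, 33.1 in clf and 1.05 in pkl.

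The remaining tissue marker lists held few calls. Root markers had 1 rise and 3 falls of 15, and their sum of 2327 FPKM in wild type and 3839 in lhp1 was carried by PYK10, from 1916 to 3479 FPKM. Phloem markers had 1 rise of 7. Guard cell markers had 2 falls of 7, among them TGG1, from 1047 to 647 FPKM, which took most of the sum of 1102 in wild type and 691 in lhp1. Of the seed markers OLEO4 was the 1 tested and fell from 2.76 to 1.33 FPKM.

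The largest rises and falls were ranked by log2 fold change. Over called nuclear loci with 1 gene, above 0 in both genotypes and at 5 FPKM or more in the higher, AT5G22430, of the pollen Ole e 1 family, ranked highest, with 0.272 FPKM in wild type, 60.9 in lhp1, 16.5 in clf and 0.401 in pkl. The lipid transfer protein gene LTP4 stood at 1.17 FPKM in wild type, 228 in lhp1, 21.6 in clf and 6.86 in pkl, and LTP3 at 5.004 FPKM in wild type, 151 in lhp1, 31.8 in clf and 11.5 in pkl. AT4G33720, of the CAP family that includes PR1, stood at 20.8 FPKM in wild type, 665 in lhp1, 31.3 in clf and 88.9 in pkl. Of these 4, AT4G33720 was the 1 whose pkl value exceeded that in clf. Floral organ identity genes hold several of the 25 highest ranks and are not described here. SVL3, annotated as SHV3-like, rose from 0.0844 to 7.405 FPKM, the caleosin gene RD20 from 1.02 to 31.7, the carboxypeptidase gene SCPL43 from 0.186 to 5.54 and the amino acid transporter-like gene UMAMIT23 from 0.325 to 7.11.

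Under the same limits AT3G16670, another Ole e 1 family gene, had the largest fall. It stood at 584 FPKM in wild type, 7.81 in lhp1, 23.4 in clf and 636 in pkl, and its neighbour AT3G16660 at 334 FPKM in wild type, 17.9 in lhp1, 81.5 in clf and 286 in pkl. PRB1, a pathogenesis-related protein gene, stood at 30.2 FPKM in wild type, 0.659 in lhp1, 20.8 in clf and 0.374 in pkl. The allene oxide cyclase genes AOC1 and AOC2, for a step of jasmonate synthesis, fell from 185 to 9.17 and from 237 to 15.5 FPKM and are close copies, so the split between them is uncertain. GolS2, of raffinose sugar synthesis, fell from 5.20 to 0.217 FPKM, YAB5, a leaf polarity gene, from 34.7 to 2.92, and the phosphatase gene AT5G02760 from 47.3 to 2.93. SADHU3-2, a retroelement-derived locus, fell from 5.70 to 0.475 FPKM and stood at 14.0 in pkl.

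Some called genes were listed at 0 in 1 genotype, 42 in wild type and 12 in lhp1, so no fold is given. AT5G55410, annotated with lipid transfer proteins, stood at 14.1 FPKM in lhp1, 0.223 in clf and 0.112 in pkl. The polygalacturonase gene ADPG1, which acts in organ shedding and pod opening, stood at 5.66 in lhp1 and the lipase gene RXF26 at 6.37. In the other direction AT1G51920, annotated as uncharacterized, stood at 26.3 FPKM in wild type, 4.55 in clf and 3.68 in pkl and at 0 in lhp1.

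The most abundant called genes were named by mean level. The glycine-rich protein gene GRP3S stood at 4034 FPKM in wild type, 1400.0 in lhp1, 2487 in clf and 4971 in pkl, and PSBR, of photosystem II, at 3946 FPKM in wild type, 2464 in lhp1, 3370.0 in clf and 3697 in pkl. AT5G42530, uncharacterized, stood at 2805 FPKM in wild type, 654 in lhp1, 1782 in clf and 214 in pkl. The abundant rises held GASA1, a gibberellin-regulated peptide gene, from 393 to 1203 FPKM, DR4 from 1042 to 1705 and the metallothionein gene MT1C from 652 to 959. The sum of all FPKM values was 961279 in wild type and 911735 in lhp1, 94.8% of it.

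Called loci lay next to each other in short runs, whose number was not tested against chance. There were 50 runs of 3 or more consecutive tested loci that all rose, holding 168 loci (7.76% of those that rose), and 47 such runs that fell, holding 154 (7.44%). In 4 of the runs that fell a gene stands at 2 loci with the same bounds; with each gene counted once, which was tried after seeing the data, 45 runs with 146 genes or shared loci fell, the longest of 4, and the runs that rose were as before. The longest run of all held 7 loci that rose and lay on TAIR10 chromosome 4, 8751381 to 8813478, a stretch of 62098 bases with triterpene genes. AT4G15390, an acyltransferase gene, stood there at 92.9 FPKM in wild type, 204 in lhp1, 87.1 in clf and 133 in pkl. The locus shared by CYP702A5 and CYP702A6 stood at 11.9 FPKM in wild type, 30.8 in lhp1, 10.9 in clf and 8.39 in pkl, and that shared by CYP705A1 and PEN1, a triterpene synthase gene, at 5.96 FPKM in wild type, 10.3 in lhp1, 5.84 in clf and 7.97 in pkl. BIA1 rose from 2.66 to 5.41 FPKM, CYP705A4 from 2.25 to 4.18, CYP705A2 from 0.318 to 1.103 and the baruol synthase gene BARS1 from 0.210 to 0.510. The deposited q of BARS1, inside the run, was 0.0470, so a limit of q under 0.01 would split the run. CSLB06, a cellulose synthase-like gene just before the run, fell from 1.24 to 0.0511 FPKM.

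**Figure D5:**
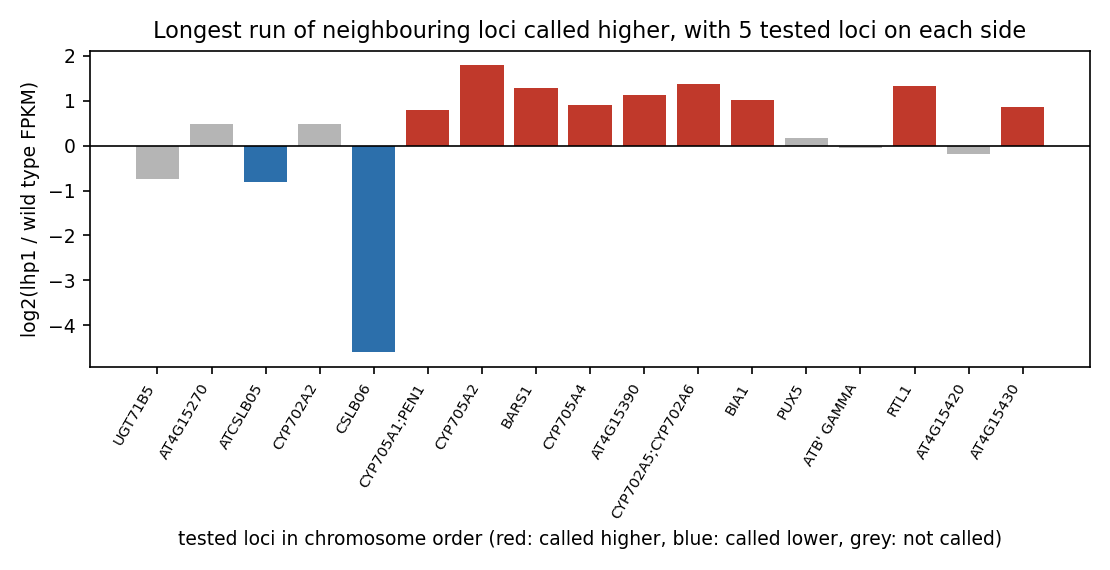
Log2 fold change of lhp1 against wild type for the 7 loci of the longest run called higher and 5 tested loci on each side, in chromosome order; bars are red where called higher, blue where called lower and grey where not called. The 7 loci lie between 0.78 and 1.79, and CSLB06 before them at -4.60.

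The next longest run that rose held 6 loci on chromosome 1, 19345940 to 19372129, with the myrosinase-binding protein genes MBP1 and MBP2 and their lectin neighbours. MBP2 stood at 2.45 FPKM in wild type, 11.4 in lhp1, 21.3 in clf and 0.473 in pkl, and AT1G52070, a mannose-binding lectin gene, at 74.6 FPKM in wild type, 116 in lhp1, 54.3 in clf and 201 in pkl. In this run MBP1, AT1G52060 and AR791 had a deposited q of 0.0419, 0.0405 and 0.0171. At a q under 0.01 no 3 consecutive loci of it would remain called. A run of 5 on chromosome 1, 29347581 to 29376504, held TPPB, a trehalose-phosphate phosphatase gene, which rose from 5.14 to 19.9 FPKM, and PGM, from 6.75 to 25.1. Another of 5 on chromosome 5, 15141702 to 15175457, held AT5G38005, a noncoding RNA that rose from 1.06 to 10.8 FPKM, and AT5G38020, a methyltransferase gene, from 10.01 to 24.3. A run of 5 on chromosome 3, 10520509 to 10598775, held AT3G28270, from 2.21 to 9.76 FPKM. The 4 genes of the thalianol cluster tested also formed a run.

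A run that fell on chromosome 2, 6507458 to 6543947, had 5 loci, LTP standing at 2 of them, and held KCS8, a fatty acid elongase gene, which fell from 66.8 to 28.4 FPKM, and the receptor-like protein gene RLP19, from 7.65 to 3.11. Another of 5, with AT3G22142 at 2 loci, lay on chromosome 3, 7794957 to 7818985, and held CWLP, a cell wall linker protein gene, which fell from 1941 to 1029.7 FPKM. The run of 4 around EFE on chromosome 1, 1425593 to 1447291, held AT1G05020, from 4.31 to 0.640 FPKM. A run of 4 on chromosome 1, 9126737 to 9143304, was made of berberine bridge enzyme-like genes, AT1G26380 falling from 11.9 to 2.65 FPKM and AT1G26420 from 7.23 to 2.57. The run at chromosome 1, 10302650 to 10308143, was made of SAUR genes, small auxin-induced genes of cell growth, with SAUR63 falling from 7.52 to 1.47 FPKM and AT1G29450 from 8.08 to 1.24. Neighbours in these families share sequence, so the split of reads between them is uncertain.

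Promoter motifs known to bind proteins that recruit Polycomb complexes were counted in the same windows on both strands. GAGAGA was in 18.8% of the 17014 windows of tested genes, in 15.9% of the 2010 of genes that rose and in 16.7% of the 1842 of genes that fell; over all 23097 windows it was in 20.3%. Among genes that rose or fell at least 2-fold GAGAGA was in 136 of 756 and 105 of 588 windows, or 17.9% of the latter, close to the share of tested genes. The telobox AAACCCTA was in 3.7%, 1.44% and 2.77% of the same sets, in 2.12% and 2.21% at 2-fold, and in 4.77% of all windows. P1BS was in 5.27% of the windows of genes that rose and 9.17% of those that fell, and at 2-fold in 37 of 756 and 59 of 588. A match is a stretch of letters, not a site shown to be bound.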

How the data were processed

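The authors deposited, per the file headers, gene-level Cuffdiff tables with 1 FPKM value per genotype and locus. The test statistic the authors deposited is a signed score, given with their p-value and q-value; the smallest q, 0.000661, is shared by 2120 of the 4236 called loci. Per the submitters' processing notes, Cufflinks 2.1.1, Cuffdiff 2.1.1, TopHat and the TAIR10 build were used. Not given in the sources used here are the strand setting, the normalisation, the libraries behind each value and the number of tests adjusted for. Depth is unknown, because FPKM keeps no counts, and the labels do not say whether libraries came from separate cultures, so p-values may measure technical spread.

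Log2 fold changes were computed here from FPKM with Python 3.11.15, pandas 2.3.3 and numpy 2.4.6; list medians use a pseudocount of 1. The scripts were tested on simulated data. Lists count genes with a locus of their own; 234 loci had no gene name and 2059 held several genes. Names came from the RefSeq gene table (TAIR10.1). Locus coordinates are TAIR10 as deposited, and sequence windows carry TAIR10.1 coordinates. The members and lists were chosen with earlier results of these data known, and the SPL list and the P1BS motif were added after values were seen. Some list patterns were also corrected then where they had caught unrelated genes. Genes were chosen for naming by rule, and the text prints part of them: LHP1, the 25 largest rises and falls, genes at 0 in 1 genotype (up to 10), up to 4 called members per list (1 member of a list with none), members of the 5 longest runs and the 10 most abundant called genes per direction. Further list members were added after their values were seen. Alternatives were a q under 0.01, adjustment within the lhp1 table, a minimum of 1 FPKM, loci with 1 gene, centring and a pseudocount. Some items are not reported here.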

Additional observations from a re-analysis of the deposited data

How the results depend on the processing

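Counts of calls over all loci kept within 1.5 times of the reported ones under every alternative except 1. With the 2-fold limit set on log2 values with a pseudocount of 1, 526 loci rose at least 2-fold in place of 804, and 476 fell in place of 630; by construction the added 1 shrinks the fold of weak loci. At a q under 0.01, 1528 loci rose and 1485 fell. With p-values adjusted over the lhp1 tests alone, 2330 rose and 2181 fell. Centring moved log2 values by 0.0285 and left the q values as they were, and 17484 of the 19509 tested loci held 1 gene. Centring and the limit to loci with 1 gene could therefore move the counts little. The share of calls that were higher, 51.1%, ranged from 50.6% to 52.1% over the alternatives. Of the genes named by the rule, all 313 kept their side of the threshold when adjusted over the lhp1 tests alone, and at a q under 0.01 38 lost their call. Adjustment over the lhp1 tests alone called more loci in both directions, so a called gene could not lose its call there. Of 114 list counts, 22 moved by over 1.5 times at a q under 0.01, 6 with p-values adjusted over the lhp1 tests alone and 8 with genes of shared loci included.

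No paired analysis was possible because the tables hold 1 value per genotype and no library values. For the same reason no library was left out. Weak genes are limited most: below 1 FPKM the read-back standard error has a median of 0.646 on the log2 scale.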

Other observations

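Loci without a gene name were tested as well: of 142, 9 were called higher and 22 lower in lhp1. Among named loci with 1 gene, where 11.6% were called higher and 10.7% lower, 91 tested noncoding RNA genes held 10 rises, close to the share over all, and 2 falls (2.2%), and 116 long noncoding RNA genes 4 of each (3.45%). Annotated transcribed pseudogenes held 9 rises and 11 falls of 103, and other pseudogenes 8 and 10 of 95.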
